A study of Homo sapiens with 3 samples.

Results

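The CCR4-NOT complex is the main cytoplasmic deadenylase of human cells, and 10 genes that encode its subunits were examined: CNOT1, CNOT2, CNOT3, CNOT6, CNOT6L, CNOT7, CNOT8, CNOT9, CNOT10 and CNOT11. They were chosen by gene symbol, and all 10 were found among the 58735 genes of the count table. Polyadenylated RNA was sequenced in 3 libraries of RPE-1, a telomerase-immortalised line from human retinal pigment epithelium. The cells carried centrin 2 tagged with GFP, which marks centrioles, and PLK4 behind a promoter that rtTA activates when doxycycline is present. All 3 libraries received a scrambled control siRNA by lipid transfection and no induction of PLK4, so they form 1 group and hold no comparison between conditions. The wider study asks what the RNA-binding protein Unkempt does when PLK4 drives centriole overduplication. Whether the 3 libraries stem from separate cultures is not stated in the labels, so a p-value here reflects how these 3 samples differ, and such differences may be technical.

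Shortening of the poly(A) tail is the step that commits most messenger RNAs to decay, and it also lowers their translation. CCR4-NOT is built on the large scaffold protein CNOT1. It carries a pair of nucleases, one of the CAF1 type (CNOT7 or CNOT8) and one of the CCR4 type (CNOT6 or CNOT6L). In each pair the paralogues take the same place, so a complex holds 1 of them. The remaining subunits form docking modules: CNOT2 with CNOT3, CNOT9 on its own, and CNOT10 with CNOT11. RNA-binding proteins, Unkempt among them, bring the complex to chosen transcripts.

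Levels are given as CPM (counts relative to library totals scaled by TMM) and per length as RPKM (CPM divided by the length in kilobases of all annotated exons merged, called the union below). Detection means 1 CPM or more in every library. Library totals ran from 46625774 to 60040029 counts. Genes with counts numbered 19953, 24416 and 23050 in libraries 1, 2 and 3. Library 1 had the fewest, although its total (49279692) exceeded that of library 3 (46625774). Library 1 stood apart from the other two over all genes: the SD of log2 ratios was 0.355 against library 2 and 0.351 against library 3, and 0.187 between libraries 2 and 3. Of the pigment epithelium markers, OTX2 (5.47 RPKM), MITF (3.05), BEST1 (1.03) and PMEL (0.50) were detected. RPE65, RLBP1, TYR and TTR were not, and TYR and TTR had no counts. VIM (1518 RPKM), FN1, KRT8, KRT18 and TERT were all detected. Of the markers of other cells, PTPRC (0.225 RPKM), PECAM1 (0.161), SNAP25 (2.09) and SYT1 (13.9) were detected, while HBB, CD3E, CD14, CDH5, RBFOX3, ALB and APOA1 were not.

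All 10 subunits were detected, with a median of 9.60 RPKM, beside 6.09 RPKM over the 11508 detected protein-coding genes. CNOT9 was the highest per length at 19.3 ± 0.775 RPKM and CNOT6L the lowest at 2.44 ± 0.357 RPKM (SD, n = 3), a 7.90-fold range. Of the 10 subunits, 8 lay above the median of detected protein-coding genes in their mean, and CNOT10 and CNOT6L lay below it. CNOT6 (6.25 ± 0.665 RPKM, SD, n = 3) did not differ from that median beyond its spread, with 5.53 RPKM in library 2. Summed over the complex, the subunits held 712, 702 and 742 CPM in libraries 1, 2 and 3. The mean of the sums was 718.6 ± 21.1 CPM (SD, n = 3).

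**Figure D1:**
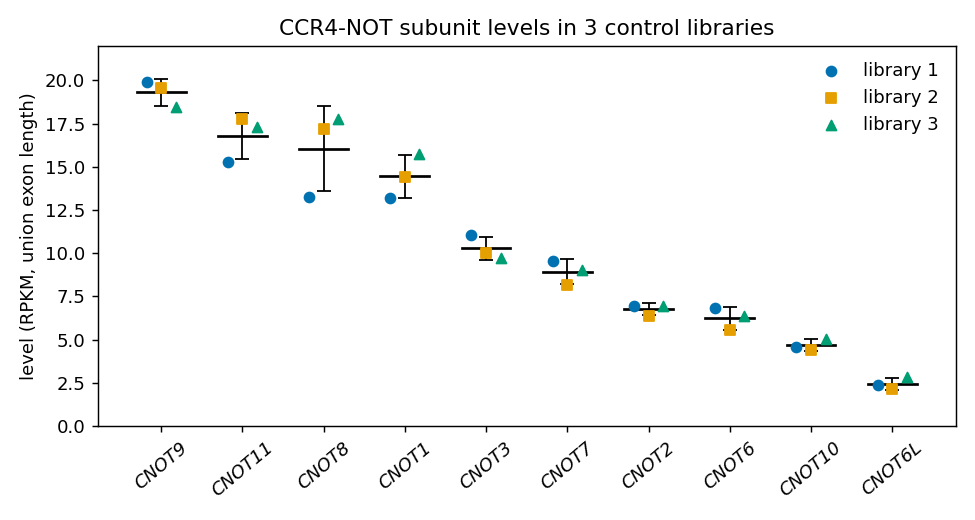
Level of each CCR4-NOT subunit in RPKM (vertical axis, linear) in the 3 control libraries, ordered from highest to lowest mean; points are libraries, the horizontal line is the mean and the bar is ± 1 SD. CNOT9, CNOT11, CNOT8 and CNOT1 lie between 13.2 and 19.9 RPKM in every library, and CNOT6L lies below 3 RPKM in every library.

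CNOT1, the scaffold that holds the complex together, had more counts than any other subunit: 6954, 9500 and 7984 in libraries 1, 2 and 3. These correspond to 143, 156 and 171 CPM, and to 14.4 ± 1.26 RPKM (SD, n = 3). Library 1 was lowest and library 3 highest, 1.19-fold apart. CNOT1 (ENSG00000125107) lies on the minus strand of chromosome 16 from 58519951 to 58629886 (hg38). Of its exon length, 11.2% overlaps genes on the opposite strand, mainly SETD6 (801, 789 and 597 counts). The strand setting of the counting is not given in the sources used here, so reads from that stretch cannot be told apart. The same limit applies to smaller overlaps with the opposite strand. They covered 7.97% of the exon length of CNOT3 (LENG1) and 4.15% of that of CNOT8 (FAXDC2). In every other subunit the overlap was 2.33% or less.

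CNOT2 and CNOT3 form a heterodimer that docks on CNOT1 through their NOT boxes. CNOT2 (ENSG00000111596, chromosome 12, 70242994 to 70354993) stood at 97.6, 89.0 and 97.0 CPM, or 6.76 ± 0.342 RPKM. CNOT3 (ENSG00000088038, chromosome 19, 54137717 to 54155708) stood at 76.0, 69.1 and 67.1 CPM, or 10.3 ± 0.678 RPKM (SD, n = 3). CNOT2 was lowest in library 2 and CNOT3 in library 3, and each kept within 1.13-fold from lowest to highest. Per length CNOT3 exceeded CNOT2 1.52-fold in the mean and in 3 of 3 libraries. That order rests on the length used: the union of CNOT2 exons spans 13993 bases over 43 annotated transcripts, and its longest coding transcript 4753 bases. With the longest coding transcript, CNOT2 exceeded CNOT3 1.22-fold.

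CNOT7 and CNOT8, the CAF1-type nucleases, differed in how they moved between libraries. CNOT7 (ENSG00000198791, chromosome 8, 17224964 to 17246878) stood at 105, 89.1 and 99.1 CPM, or 8.93 ± 0.726 RPKM. CNOT8 (ENSG00000155508, chromosome 5, 154857553 to 154876793) stood at 52.1, 67.5 and 69.8 CPM, or 16.1 ± 2.45 RPKM (SD, n = 3). CNOT7 was highest in library 1, where CNOT8 was lowest, and the CNOT8 values of libraries 2 and 3 lay close together. Per length CNOT8 exceeded CNOT7 1.79-fold, by 0.47, 1.08 and 0.97 on the log2 scale in libraries 1, 2 and 3. With the longest coding transcript as length the ratio was 1.64-fold, and without length CNOT7 had 1.56-fold more counts.

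The balance within the CAF1 pair can be followed without any scaling as the share of counts, since gene lengths do not change between libraries. CNOT8 held 33.2% of the pair's counts in library 1 (2527 of 7616, 95% exact binomial interval 32.1 to 34.3%). The share was 43.1% in library 2 (42.1 to 44.1%) and 41.3% in library 3 (40.2 to 42.4%). The interval of library 1 lay wholly below those of the other libraries, which overlapped each other. Such intervals hold counting error alone and no variation between libraries. Amplified reads are not separate molecules, so the intervals may be too narrow even for counting error. The summed level of the pair was 157, 157 and 169 CPM.

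CNOT6 and CNOT6L, the CCR4-type nucleases, were the least abundant pair in summed mean level, per length and without length. Without length the sum was close to that of CNOT10 and CNOT11 (64.1 ± 6.72 and 69.6 ± 4.14 CPM, SD, n = 3). In library 1 it was the higher of these sums (67.5 and 64.9 CPM). CNOT6 (ENSG00000113300, chromosome 5, 180494412 to 180578405) stood at 45.1, 36.4 and 41.9 CPM, or 6.25 ± 0.665 RPKM. CNOT6L (ENSG00000138767, chromosome 4, 77713387 to 77819615) stood at 22.4, 19.9 and 26.5 CPM, or 2.44 ± 0.357 RPKM (SD, n = 3). Both were lowest in library 2, and CNOT6L was highest in library 3. CNOT6 exceeded CNOT6L 2.56-fold per length, 2.54-fold with the longest coding transcripts and 1.80-fold without length, so its lead held under each treatment of length. CNOT6 held 66.9% of the pair's counts in library 1 (95% exact binomial interval 65.2 to 68.5%), 64.7% in library 2 (63.1 to 66.3%) and 61.3% in library 3 (59.6 to 63.0%). The intervals of libraries 1 and 2 overlapped, and that of library 3 lay below both.

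Because the members of a pair are similar in sequence, reads could in principle be divided between them. Over aligned coding bases CNOT6 and CNOT6L were 74.0% identical, and CNOT7 and CNOT8 were 71.3% identical. In each pair the longest run of coding bases without a difference was 20 bases. The stretch around that run is shown for the CCR4 pair, because it holds that run. It lies in coding exon sequence, in CNOT6 on the plus strand at chr5:180567880-180567971 and in CNOT6L on the minus strand at chr4:77731416-77731507 (hg38, GENCODE release 29). Capitals mark the 18 of 92 bases that differ.
CNOT6: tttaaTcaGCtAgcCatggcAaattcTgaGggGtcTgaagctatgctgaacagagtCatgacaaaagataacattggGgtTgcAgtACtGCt
CNOT6L: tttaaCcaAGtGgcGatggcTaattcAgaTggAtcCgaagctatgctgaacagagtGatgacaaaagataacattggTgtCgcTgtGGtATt

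No stretch of 50 bases was common to the annotated transcripts of any of the 10 subunits and another subunit. The read length is not given in the sources used here, and 50 bases were taken as an example. Sharing with other genes was largest for CNOT6L, where 6.71% of such stretches also occur in its processed pseudogene CNOT6LP1. That pseudogene had 2, 4 and 4 counts. CNOT7 shared 1.57%, mainly with CNOT7P1 (3, 4 and 1 counts), and CNOT10 shared 1.85% with several genes. CNOT2 shared 0.315% and CNOT9 0.20%. CNOT1, CNOT3, CNOT6, CNOT8 and CNOT11 shared none.

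**Figure D2:**
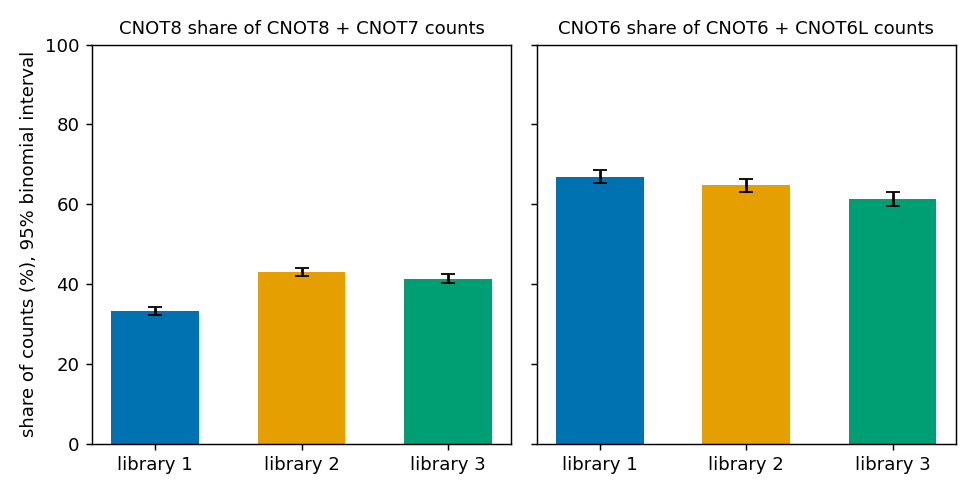
Share of a pair's counts (vertical axis, percent) held by CNOT8 out of CNOT8 and CNOT7 (left) and by CNOT6 out of CNOT6 and CNOT6L (right) in each library; bars start at 0 and error bars are 95% exact binomial intervals of counting error. The CNOT8 share is 33.2% in library 1 against 43.1% and 41.3%, and the CNOT6 share runs from 61.3 to 66.9%.

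As sums per length, the CAF1-type nucleases stood at 25.0 ± 2.01 RPKM and the CCR4-type nucleases at 8.69 ± 0.900 RPKM (SD, n = 3). Their ratio was 2.47, 3.31 and 2.92 in libraries 1, 2 and 3, and the CAF1 sum was the higher in every library. Relative to CNOT1, the CAF1 sum was 1.73, 1.76 and 1.71 per length, and without length its mean was 1.03 ± 0.058 (SD, n = 3). The CCR4 sum was 0.699, 0.531 and 0.585 of the CNOT1 level per length, and 0.471, 0.360 and 0.401 without length. Without length the CAF1 sum was 2.53 ± 0.232 times the CCR4 sum. With the longest coding transcript as length, CNOT7 and CNOT8 stood at 14.1 and 23.3 RPKM. CNOT6 and CNOT6L stood at 6.53 and 2.58 RPKM by that length, so the ratio of the sums was larger there.

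CNOT9, the armadillo-repeat subunit that binds tryptophans of GW182 proteins and other adaptors, was the highest per length. CNOT9 (ENSG00000144580, chromosome 2, 218568580 to 218597080) stood at 105, 104 and 97.5 CPM, which was 19.9, 19.6 and 18.4 RPKM. The 3 values lay within 1.08-fold, the narrowest range of the 10 subunits. CNOT9 exceeded CNOT1 1.34-fold per length and in 3 of 3 libraries. With the longest coding transcript it was again the highest (25.05 ± 1.01 RPKM, SD, n = 3), and without length it was second to CNOT1.

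CNOT10 and CNOT11, which dock together on the amino-terminal part of CNOT1, stood far apart in level. CNOT10 (ENSG00000182973, chromosome 3, 32685145 to 32773875) stood at 22.3, 21.4 and 24.6 CPM, or 4.70 ± 0.334 RPKM. CNOT11 (ENSG00000158435, chromosome 2, 101252802 to 101270316) stood at 42.6, 49.5 and 48.2 CPM, or 16.8 ± 1.32 RPKM (SD, n = 3). CNOT10 was highest in library 3, and CNOT11 was lowest in library 1. CNOT11 exceeded CNOT10 3.58-fold per length, 2.23-fold with the longest coding transcripts and 2.06-fold without length.

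Promoter windows, from 250 bases before to 50 bases after a transcript start (RefSeq, GRCh38.p14), were available for 8 of the 10 subunits in 14 windows. No window was used for CNOT1 and CNOT7. The GC box GGGCGG, searched on both strands, occurred in windows of 7 of the 8 subunits and in 12 of the 14 windows, beside 45.0% of all 35116 windows. The core TATAAA occurred in none of the 14, beside 11.5% of all windows, and AAGATGG, the core bound by YY1, in 3 windows (CNOT2, CNOT3 and CNOT9), beside 5.84%. CCGGAA, the ETS core, occurred in 2 windows (CNOT6L and CNOT9, 17.2% of all windows), and CCAAT in 5 (CNOT2, CNOT3, CNOT6, CNOT10 and CNOT11, 34.6%). None of these motifs contains another. The median GC content was 66.3% for the 14 windows and 58.7% for all windows, and several windows of 1 gene overlap or adjoin. A match describes these letters and is not a binding site.

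The windows of CNOT9, the highest subunit per length, and CNOT10, whose window holds no GC box, are shown for their contrast in these letters. Capitals mark the motif letters named above. CNOT9 is read from chr2:218568589-218568888 and CNOT10 from chr3:32695291-32695590, both on the plus strand. Both windows lie inside the genes as GENCODE annotates them, whose starts are at 218568580 (CNOT9) and 32685145 (CNOT10). The letters at and before those starts were therefore not examined.
CNOT9: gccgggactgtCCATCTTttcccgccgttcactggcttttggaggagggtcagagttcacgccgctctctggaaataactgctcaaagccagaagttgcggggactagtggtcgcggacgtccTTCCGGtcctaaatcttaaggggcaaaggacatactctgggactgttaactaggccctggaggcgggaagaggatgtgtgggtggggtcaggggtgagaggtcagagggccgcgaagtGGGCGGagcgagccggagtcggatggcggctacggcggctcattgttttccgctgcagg
CNOT10: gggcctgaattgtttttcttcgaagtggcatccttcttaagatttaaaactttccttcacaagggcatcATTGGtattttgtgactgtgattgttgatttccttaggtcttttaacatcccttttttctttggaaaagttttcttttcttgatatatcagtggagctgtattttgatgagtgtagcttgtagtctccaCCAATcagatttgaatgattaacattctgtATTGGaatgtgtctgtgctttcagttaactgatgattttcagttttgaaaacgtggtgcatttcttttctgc

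The CNOT9 window holds 1 GC box, 1 ETS core and 1 YY1 core at a GC content of 60.3%, and the CNOT10 window holds only CCAAT boxes at 35.3%. In level per length the genes stood 4.12-fold apart, and a link between the letters and the level was not tested. CNOT6L, the lowest subunit per length, held a GC box in each of its windows, at 69.7, 75.3 and 64.3% GC. The windows say nothing of which transcript start these cells used.

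The order per length was CNOT9, CNOT11, CNOT8, CNOT1, CNOT3, CNOT7, CNOT2, CNOT6, CNOT10 and CNOT6L. Of the 9 neighbouring pairs in this order, 8 had the same direction in 3 of 3 libraries with a mean log2 ratio larger than its SD. CNOT11 and CNOT8 did not differ beyond their spread (log2 ratio 0.07 ± 0.12, SD, higher in 2 of 3 libraries). CNOT8 over CNOT1 (0.14 ± 0.13), CNOT9 over CNOT11 (0.20 ± 0.16) and CNOT2 over CNOT6 (0.12 ± 0.09) passed that rule narrowly. The widest steps were CNOT10 over CNOT6L (0.95 ± 0.11) and CNOT1 over CNOT3 (0.49 ± 0.22). Of all 45 pairs, 44 had 1 direction in 3 of 3 libraries. By a two-sided exact sign-flip permutation test, the smallest p that 3 libraries allow is 0.25 (0.256 after Benjamini-Hochberg adjustment over the 45 pairs), so no pair could pass a threshold of 0.05.

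The order depended on how length was treated. With the longest coding transcript, 7 of the 45 pairs turned. The new order has partly other neighbours, and 4 of its 9 neighbouring pairs differed beyond their spread. CNOT2 rose from the seventh to the third place (19.9 ± 1.01 RPKM by that length, SD, n = 3) and CNOT11 moved from the second to the fifth. Without length 13 pairs turned, with CNOT1 first and CNOT10 last. CNOT9 stayed in the first or second place and CNOT6L in the last or the one before it under all 3 treatments.

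**Figure D3:**
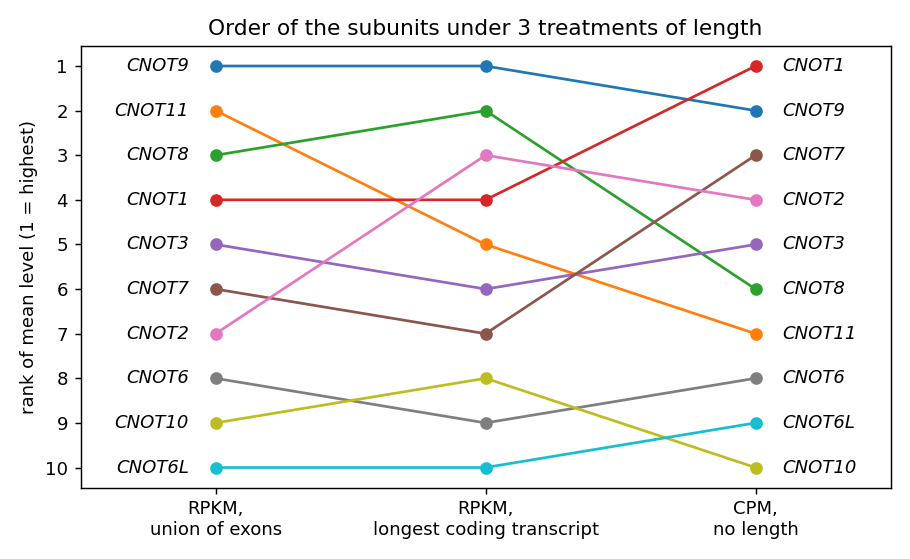
Rank of each subunit by mean level (vertical axis, 1 is highest) when length is the union of exons, the longest coding transcript, or not used; each line is 1 subunit. CNOT9 stays at rank 1 or 2 and CNOT6L at rank 9 or 10, while CNOT2 and CNOT11 move the most between the RPKM scales.

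Between libraries each subunit moved by a small amount that its depth nevertheless resolved. The ratio of highest to lowest CPM ran from 1.08 for CNOT9 to 1.34 for CNOT8, with a median of 1.17. The same median was 1.25 over tested genes with counts in every library and 1.16 over the 5930 genes with a mean count in the range of the subunits (1177 to 8146). A chi-square test of the 3 counts against the scaled library sizes, adjusted over 16293 genes, called all 10 subunits beyond counting noise. It called 68.6% of all tested genes and 84.8% of the genes in that range of counts, so a call was common at this depth. CNOT8 had the smallest adjusted p (4.83e-31) and CNOT10 the largest (0.00489). When every gene was granted an added coefficient of variation of 0.05, the calls were 2 of 10 subunits and 32.7% of all tested genes. The 2 subunits were CNOT8 (adjusted p = 0.00194) and CNOT6L (0.00739).

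CNOT8 and CNOT6L were therefore the subunits that varied most, with a CV over libraries of 15.3% and 14.6%. Counting alone gives 1.74% and 2.91% at their depth. CNOT8 deviated from its own mean by -0.26, 0.11 and 0.16 in log2(CPM + 0.5) in libraries 1, 2 and 3, and CNOT6L by -0.02, -0.19 and 0.22. The CNOT8 spread rested on library 1: without it the adjusted p was 0.288. That of CNOT6L lay between libraries 2 and 3, and its adjusted p was 3.41e-11 without library 1. CNOT9 and CNOT2 varied least, with CVs of 4.01% and 5.07%.

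Without library 1, 7 subunits were called beside 28.2% of tested genes, and CNOT3, CNOT8 and CNOT11 were not. Without library 2, 9 were called beside 56.5%, and CNOT2 was not. Without library 3, 8 were called beside 61.0%, and CNOT9 and CNOT10 were not. These shares cover all tested genes, many of lower depth than the subunits. No share was computed for the subunits' range of counts with a library left out, so depth is not matched here.

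**Figure D4:**
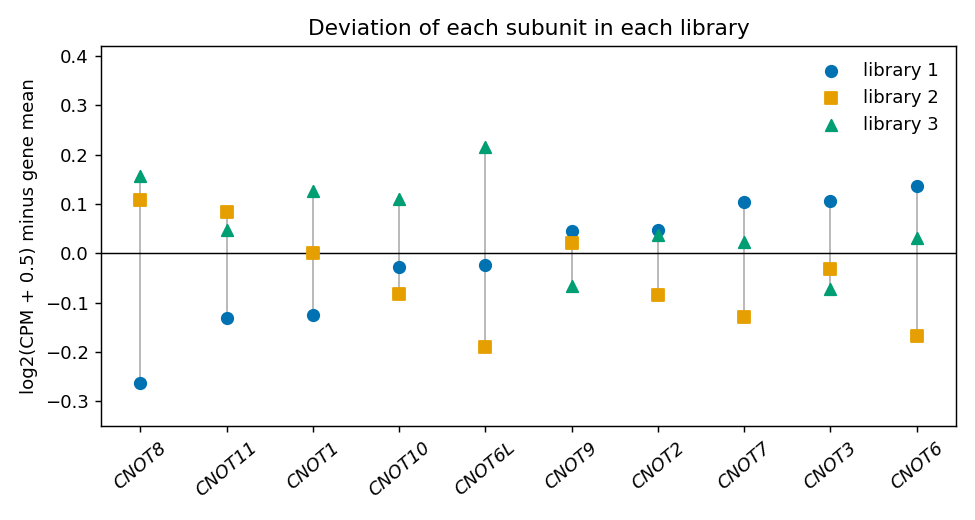
Deviation of each subunit from its own mean over the 3 libraries, as log2(CPM + 0.5) minus the mean (vertical axis), ordered by the value in library 1; each point is 1 library. CNOT8, CNOT11 and CNOT1 are lowest in library 1, and CNOT6, CNOT3, CNOT7, CNOT2 and CNOT9 are highest there.

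The subunits did not share 1 direction in library 1, which stood apart over the tested genes. In library 1, 5 subunits were highest (CNOT2, CNOT3, CNOT6, CNOT7 and CNOT9) and 3 were lowest (CNOT1, CNOT8 and CNOT11). Their deviations there ran from -0.26 to 0.14, with a median of 0.01, and the median over all tested genes was -0.01. Library 2 was lowest for 5 subunits and held a median of -0.06, and library 3 a median of 0.04. Library 1 lay farthest from the rest for 4 of the 10 subunits, and for 66.4% of all called genes. edgeR's gene-wise biological coefficient of variation had a median of 0.0982 for the subunits, 0.0999 for genes in their range of counts and 0.122 for all genes kept by its filter. edgeR draws these values toward a trend shared by genes of like level, so closeness of the medians partly reflects that step.

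Around the complex, genes with a known tie to deadenylation were measured from lists chosen by function. Their calls are to be read beside the 68.6% of all tested genes. Many of them have counts in the range of the subunits, where 84.8% of tested genes were called. Of 8 proteins that bind CCR4-NOT without being core subunits, 7 were detected, and all 7 tested were called by the chi-square test. CNOT4, a ubiquitin ligase, had the widest range among them and was highest in library 1 (49.8, 32.6 and 33.0 CPM, adjusted p = 1.96e-54) and the lowest per length at 5.50 RPKM. BTG2, an antiproliferative protein that binds the CAF1 subunits, was highest at 54.2 ± 7.09 RPKM (SD, n = 3). BTG4, its relative of oocytes, had 0, 1 and 1 counts. The median of the detected genes of this list was 20.1 RPKM.

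All 8 other poly(A) nucleases and related enzymes were detected, with a median of 4.74 RPKM, and 6 of 8 were called. PARN, a poly(A)-specific ribonuclease, was highest at 10.3 ± 0.50 RPKM and ANGEL1 lowest at 1.16 ± 0.102 RPKM (SD, n = 3). PAN2, the nuclease of the PAN2-PAN3 complex that acts on long tails, stood at 23.8, 30.5 and 29.3 CPM. It was lowest in library 1 and had the widest range of the called genes in this list (adjusted p = 2.49e-10). In RPKM, CNOT8 and CNOT7 lay at 16.1 and 8.93, and PAN2 at 3.82.

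Of 18 RNA-binding proteins and adaptors that recruit the complex, 16 were detected, with a median of 8.29 RPKM, and 13 of 16 tested were called. ZFP36L1, which binds AU-rich elements, was highest at 46.2 ± 19.7 RPKM (SD, n = 3), with 355, 188 and 173 CPM. Its relative ZFP36 (tristetraprolin) had the widest range, with 27.5, 17.9 and 12.7 CPM (adjusted p = 2.37e-60), and both were highest in library 1. TNRC6C, a GW182 protein, was lowest at 1.54 ± 0.296 RPKM. NANOS2 had no counts, which allows up to 0.0618, 0.0494 and 0.0641 CPM in libraries 1, 2 and 3 at 3 counts, and NANOS3 had 6, 7 and 4 counts. UNK, which encodes Unkempt, stood at 11.4 ± 0.517 RPKM, between CNOT1 and CNOT3 when length is the union. That place depends on length: without length UNK had a mean of 63.6 CPM, below CNOT3 at 70.7 CPM.

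All 15 genes of decapping, decay from the other end and translational repression were detected, with a median of 9.34 RPKM, and 11 of 15 were called. LSM1, of the ring that binds deadenylated ends, was highest at 27.9 ± 1.91 RPKM, and DCP2, the decapping enzyme, was lowest at 1.60 ± 0.187 RPKM (SD, n = 3). GIGYF2, a translational repressor, had the widest range of the called genes at 100.02, 74.2 and 75.2 CPM, highest in library 1 (adjusted p = 5.04e-56). DDX6, the helicase that binds CNOT1, stood at 202, 192 and 203 CPM.

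Of 6 cytoplasmic poly(A)-binding proteins 3 were detected, and all 4 tested were called. PABPC1, the main protein that coats poly(A) tails, was highest at 336 ± 56.5 RPKM and PABPC1L was the lowest detected at 4.19 ± 0.942 RPKM (SD, n = 3). PABPC3 fell below detection in libraries 1 and 2 with 30, 29 and 49 counts and had the widest range. It is an intronless gene nearly identical to PABPC1, so its counts are uncertain. PABPC4L and PABPC5 had no counts.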

How the data were processed

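Poly(A)-selected RNA of RPE-1 cells was measured in 3 libraries of 1 group. The authors deposited raw read counts per gene. Tools named in the submitters' processing notes are STAR 2.5.2a, cutadapt 1.16 and featureCounts 1.6.2, with hg38 as build and no settings. Annotation, strand setting and handling of multi-mapping reads: not given in the sources used here. Another 6 count columns of the table fitted no sample label and were left out.

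All 58735 gene identifiers matched GENCODE release 29, which gave positions and lengths. Counts were scaled by TMM (edgeR 4.0.16, R 4.3.3). Spread was tested by chi-square (2 degrees of freedom) over genes whose mean count reached 10, adjusted by Benjamini-Hochberg at a threshold of 0.05. Ratios used a pseudocount of 0.5 count. DESeq2 1.42.0 size factors, total counts, other filters, other lengths, an extra CV and leaving out each library were alternatives. All members are named. Of each list the highest, the lowest, the widest called gene and genes below detection are named, with UNK, DDX6 and further marker values added. The members and lists were chosen with earlier results of these data known.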

Additional observations from a re-analysis of the deposited data

How the results depend on the processing

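All 10 subunits stayed beyond counting noise with DESeq2 size factors, with total counts, without a filter and with the edgeR filter. An extra CV of 0.05 left 2 calls, since it widens the allowed spread by construction, and leaving out 1 library left 7 to 9 calls. Of the 9 neighbouring pairs, 8 were ordered beyond their spread, and 7 to 8 when 1 library was left out, which left the order unchanged. The longest coding transcript as length, or no length, gave other orders with partly other neighbours, and 4 of the 9 neighbouring pairs passed in each case. With the longest coding transcript, the log2 ratio of CNOT2 to CNOT3 became 0.29, CNOT1 to CNOT2 -0.11 and CNOT1 to CNOT11 0.038. Without length the log2 ratio became 0.64 for CNOT7 to CNOT8, 0.42 for CNOT2 to CNOT3, 1.32 for CNOT1 to CNOT8, 0.61 for CNOT1 to CNOT9 and 1.74 for CNOT1 to CNOT11. A pseudocount of 5 counts turned none of the ratios it was run on, CNOT1 to each other subunit and the pairs CNOT6 to CNOT6L, CNOT7 to CNOT8, CNOT2 to CNOT3 and CNOT10 to CNOT11. No paired analysis was possible because all 3 libraries belong to 1 group. The mean count of each subunit was at least 1177.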
